A study of Mus musculus with 3 samples.

Results

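Exonic H2A.Z regions away from gene starts were examined in mouse embryonic stem cells (ESCs). They were the regions of the H2A.Z WT list whose midpoint lay in an annotated exon of a protein-coding gene and more than 2 kb from every start of a protein-coding transcript. Of 78359 H2A.Z WT regions, 6889 (8.79%) met this rule, in 4026 host genes. The remaining regions lay within 2 kb of a start (18957, called promoter regions), in introns (18741) or outside protein-coding genes (33772), by the same midpoint rule.

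The study profiled 3 ChIP-Seq libraries, 1 per group, all from mouse ESCs of a 129SvJae and C57BL/6 cross. The H2A.Z WT cells expressed a doxycycline-inducible, YFP-tagged wild-type H2A.Z transgene, and the H2A.Z AP3 cells the same transgene with G92N, D97N and S98K in the acidic patch, a charged surface of the nucleosome. In both transgenic lines the endogenous H2A.Z was depleted with a hairpin against its 3′ untranslated region (UTR), cells were sorted for YFP, and chromatin was pulled down with an antibody against GFP, so both lists describe the tagged transgene product only. The transgenes came in by lentivirus and ran from a CMV promoter under the drug-controlled activator rtTA, and the feeder fibroblasts were left out in the last passage before the ChIP. The third library was a pull-down of H3K27me3 from cells labelled WT, so the H3K27me3 list does not come from either transgenic line.

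H2A.Z, a variant of histone H2A, sits in nucleosomes at the starts of active genes and of genes held silent by Polycomb. H3K27me3 is the histone mark written by the Polycomb repressive complex 2, and in ESCs it covers many developmental regulators whose promoters also carry active marks. Exons are richer in G and C than the introns around them, and a CpG island is a stretch rich in the CG dinucleotide that is otherwise rare in mammalian DNA.

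To show the coding sequence under long exonic regions, 30 bases from the midpoint are printed for the 2 longest regions of each overlap class whose 30 middle bases lay wholly in the coding sequence of 1 gene. All are read on the strand of the host gene in mm9, with CG dinucleotides in capitals. The exon given is the one at the midpoint, and a region can reach past it, as in Plec (region 6150 bp, exon 3381 bp). The overlap class belongs to the whole region, so the printed bases need not lie in a region of the other lists. The first pair overlapped regions of both other lists, in the last exon (15 of 15) of Apc2, a brain relative of the APC tumour suppressor, at chr10:79776211-79776240, and in exon 6 of 12 of Bsn, the presynaptic scaffold bassoon, at chr9:108008923-108008952. The next pair overlapped AP3 regions only, in exon 11 of 14 of the kinase gene Aatk at chr11:119872361-119872390 and in exon 3 of 10 of the proteoglycan gene Cspg4 at chr9:56734686-56734715. The pair that overlapped H3K27me3 only lay in exon 32 of 33 of Plec, which encodes the cytoskeletal linker plectin, at chr15:76010036-76010065, and in exon 5 of 12 of Bsn at chr9:108014248-108014277. The last pair overlapped neither list and lay in exon 9 of 20 of BC006779 at chr2:180968373-180968402 and in exon 2 of 2 of Tlr9, a receptor for unmethylated CpG DNA, at chr9:106127423-106127452.
Apc2, both: cCGatctcacCGgcccaaagcagcaggCGc
Bsn, both: aaagttccaggatgaaatcacctatgggct
Aatk, AP3: CGctcctgacatcctacctgcctcacccac
Cspg4, AP3: ggtgggcctgcacaggacctaacattcCGg
Plec, H3K27me3: ggcagCGcagtctCGgaaacaagtggaaga
Bsn, H3K27me3: tatcaataccccaattgctgcaaCGctgcc
BC006779, neither: aaggtggtggccagatcaagagcctgCGat
Tlr9, neither: ggacctgtcccataacaaactggacttgta

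The windows of Apc2 and Plec held 3 and 2 CG dinucleotides, and those of Tlr9 and of the Bsn exon 6 region held 0. Across whole regions, the Plec region had 371 CG dinucleotides in 6150 bp (6.03 per 100 bp, 64.1% G+C), whereas the Tlr9 region had 107 in 3275 bp (3.27 per 100 bp, 56.5% G+C). Both were above the 47.0% G+C of the exonic sequence that was searched.

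H2A.Z WT regions were denser in exons than in introns. There were 117 regions per Mb (95% Poisson interval 114 to 119) over 59.1 Mb of exonic sequence beyond 2 kb from starts, against 21.8 per Mb (21.5 to 22.2) over 858 Mb of intronic sequence. The ratio was 5.34 (95% interval 5.19 to 5.49) and was above 1 on 20 of 20 chromosomes. Counting only regions wholly inside exons or wholly inside introns, the ratio was 2.56 (2.46 to 2.66). Outside protein-coding genes the density was close to that in introns (ratio of exonic to this sequence 5.27, 5.14 to 5.41), and promoters were denser than exons (ratio of exonic to promoter 0.689, 0.67 to 0.708). As there was 1 library per group, no test between samples was possible; all intervals cover counting error only and treat regions as independent, and the number of reads behind each list is unknown.

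Within exons the regions followed the coding sequence. Coding bases held 5513 of the regions (80.0%) at 208 per Mb (202 to 213), whereas 3′ UTRs held 978 (14.2%) at 40.8 per Mb (38.3 to 43.4). The ratio of these densities was 5.09 (4.75 to 5.45), above 1 on 20 of 20 chromosomes. In 5′ UTRs, most of which lie within 2 kb of a start, there were 44 regions in 0.445 Mb (98.9 per Mb, 71.9 to 133). Exons found only in non-coding transcripts of protein-coding genes held 354 regions at 43.7 per Mb (39.3 to 48.5).

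Most exonic regions lay in inner exons, those with another exon on both sides. Inner exons held 4212 regions (61.1%) at 194 per Mb (188 to 200), and last exons 2288 (33.2%) at 79.6 per Mb (76.4 to 82.9). Inner exons were thus 2.44 times as dense (2.32 to 2.57, above 1 on 20 of 20 chromosomes). Last exons also held 968 of the 978 regions in 3′ UTRs, while 1316 of their 2288 regions lay in coding sequence. The density in the coding part of last exons was not computed. The part of 3′ UTRs in the ratio of inner to last exons was therefore not tested. First exons, which reach beyond 2 kb from a start only when they are longer than 2 kb, held 18 regions at 170 per Mb (100 to 268). Coding transcripts with 1 exon, a class set by the transcript and not by the gene, held 17 regions at 39.5 per Mb (23.0 to 63.3). The exon class came from the transcript with the longest coding sequence at the midpoint, and for 242 regions (3.51%) another transcript gave another class. The plot of densities by annotation sets these values beside each other.

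**Figure D1:**
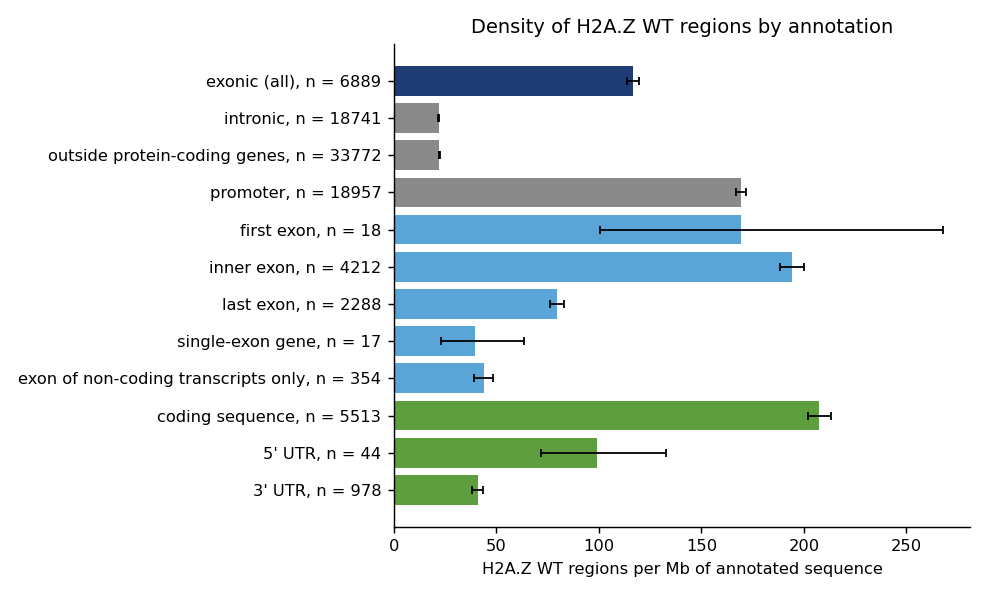
Number of H2A.Z WT regions per Mb of annotated sequence (horizontal axis), for all exonic regions and the other 3 classes (dark blue and grey), the exon classes (light blue) and the parts of the transcript (green), with 95% Poisson intervals and the number of regions. Inner exons (194 per Mb) and coding sequence (208 per Mb) stand above last exons (79.6) and 3′ UTRs (40.8), and the interval for first exons (100 to 268) is wide because they hold 18 regions.

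The size of the exon also went with the density. Exons shorter than 200 bp held 2184 regions at 144 per Mb (138 to 151), those of 200 to 500 bp 1618 regions at 233 per Mb (222 to 245), those of 500 to 1000 bp 846 at 146 per Mb (137 to 156), and those of 1000 bp or longer, which include most 3′ UTRs, 2241 at 71.8 per Mb (68.8 to 74.8). Most regions were larger than a small exon. Their median length was 300 bp (quartiles 175 and 575 bp, shortest 25 bp, longest 6150 bp), a median of 89.7% of a region was exonic, and 2825 regions (41.0%) lay wholly inside exons. A run of separate exons was touched by some: 619 regions (8.99%) reached 2 or more exons of coding transcripts, and 234 (3.40%) reached 3 or more. Another H2A.Z WT region lay within 1 kb of 2191 regions (31.8%), and whether such neighbours belong to one enriched stretch was not tested. A start of a transcript that is not protein-coding lay within 500 bp of 501 exonic regions (7.27%, 6.68 to 7.91) and of 550 intronic regions (2.93%, 2.70 to 3.19). Such starts include those of non-coding transcripts of protein-coding genes, which lie at the edge of an exon. The shares for exonic and intronic sequence at large were not computed, so no difference between the regions is drawn from these values.

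Base composition moved with the share of coding, 3′ UTR and intronic sequence that regions covered. Exonic regions averaged 59.1% G+C and 3.88 CG dinucleotides per 100 bp, against 47.0% and 1.77 in the exonic sequence that was searched. Of coding 25-bp bins whose surrounding 500 bp were below 40% G+C, 0% lay in an H2A.Z WT region, and the share rose to 0.918% at 45 to 50% G+C, 7.43% at 50 to 55%, 23.4% at 55 to 60%, 44.0% at 60 to 65% and 61.1% at 65% or more. Intronic bins had 0.238%, 3.19%, 14.2%, 19.7% and 13.8% in the same 5 classes from 45% upwards, so the gap between coding and intronic sequence was widest in the richest classes. For 3′ UTRs the shares were 0.40%, 3.81%, 14.4%, 26.9% and 45.1%, close to intronic values at 50 to 60% G+C and above them beyond it.

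Matching on composition made the excess of exons smaller. H2A.Z WT regions covered 4.84% of exonic bins and 0.704% of intronic bins, a ratio of 6.87. When intronic coverage was taken at the G+C of the exonic bins the ratio was 1.74, and at the same G+C and CpG count it was 1.38. For coding sequence the ratio went from 12 to 2.01 and 1.51, and for 3′ UTRs from 2.59 to 1.15 and 1.06. The same steps gave 7.76, 2.19 and 1.63 for coverage of exonic sequence by AP3 regions and 5.78, 2.16 and 1.65 for coverage by H3K27me3 regions, so the excess of exons shrank in all 3 pull-downs. The order of coding sequence and 3′ UTRs was not shared. After both matches AP3 had 1.74 in coding sequence and 1.26 in 3′ UTRs, whereas H3K27me3 had 1.32 and 2.90. The part of sequencing or mapping in the dependence on G+C was not tested, and the input was not analysed here. The plot of coverage against G+C gives the values for each library.

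**Figure D2:**
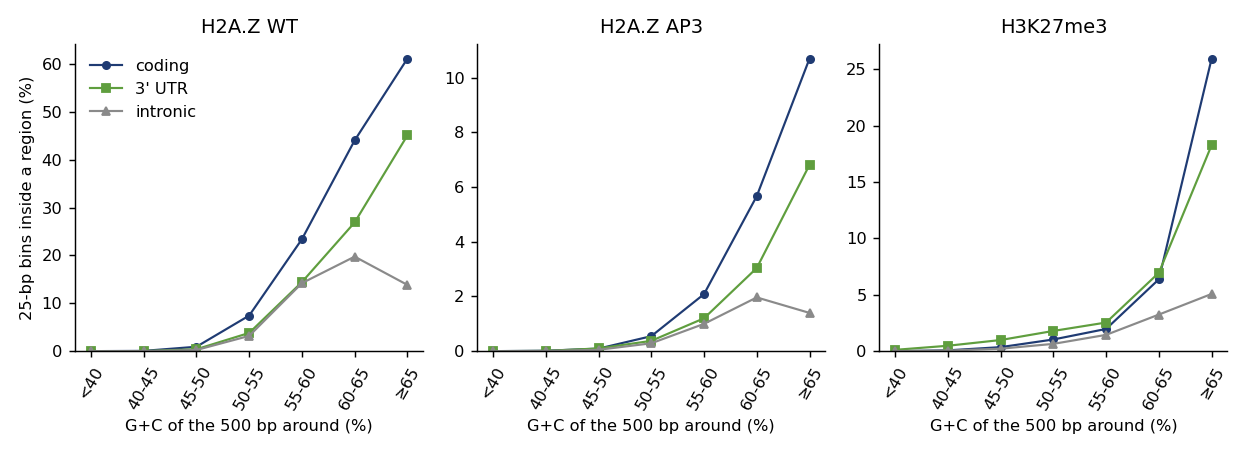
Percentage of 25-bp bins inside a region (vertical axis, a separate scale for each panel) against the G+C of the 500 bp around the bin (horizontal axis) for each of the 3 pull-downs, in coding sequence (circles), 3′ UTRs (squares) and introns (triangles) beyond 2 kb from starts. Coverage by H2A.Z WT rises to 61.1% of coding bins at 65% G+C or more, where intronic bins reach 13.8%, and all 3 libraries rise with G+C in exons.

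The mutant list was much shorter than the wild-type list, with 14599 AP3 regions covering 3.5 Mb against 28.3 Mb for H2A.Z WT. Among the exonic regions, 872 (12.7%, 95% Wilson interval 11.9 to 13.5) shared at least 1 base with an AP3 region, close to the 12.9% of all H2A.Z WT regions. H3K27me3 regions, of which there were 16970 covering 9.32 Mb, met 559 exonic regions (8.11%, 7.49 to 8.78), close to the 8.08% of all H2A.Z WT regions. Exonic regions were thus near the whole list for both overlaps, and they lay between introns and promoters. For AP3 the share was 8.91% (8.51 to 9.33) in introns, 10.5% (10.2 to 10.8) outside protein-coding genes and 21.4% (20.9 to 22.0) at promoters. For H3K27me3 it was 2.97% (2.73 to 3.22), 3.69% (3.5 to 3.9) and 20.9% (20.4 to 21.5).

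Compared with intronic regions, exonic regions overlapped AP3 more often (odds ratio 1.48, 95% interval 1.36 to 1.62, above 1 on 19 of 20 chromosomes). The median length was 300 bp in exons and 200 bp in introns. Within 10 strata of region length the odds ratio was 1.07 (0.974 to 1.17), an interval that includes 1, and within strata of CpG content it was 1.30 (1.18 to 1.42). For H3K27me3 the odds ratio was 2.89 (2.56 to 3.26), above 1 on 20 of 20 chromosomes, and it was 2.17 (1.92 to 2.46) within strata of length and 1.40 (1.23 to 1.59) within strata of CpG content.

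Length moved with both overlaps among the exonic regions themselves. Of the 586 regions of 50 bp or less, 1.54% overlapped AP3 and 2.22% H3K27me3, whereas of the 701 regions of 1000 bp or more, 33.8% (30.4 to 37.4) overlapped AP3 and 26.1% (23.0 to 29.5) H3K27me3. The overlaps were also partial. An AP3 region covered a median of 40% of the exonic region it met and an H3K27me3 region a median of 75.6%, and AP3 regions covered 281000 of the 3043525 bases in exonic regions (9.23%). Reads were not analysed here, so a lower level of the mutant histone at an exon and its absence cannot be told apart.

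Both overlaps were more frequent in last exons than in inner exons. AP3 met 15.2% (13.8 to 16.7) of last-exon regions and 11% (10.1 to 12) of inner-exon regions (odds ratio 1.44, 1.24 to 1.68, above 1 on 18 of 20 chromosomes; 1.18, 1.01 to 1.38, within strata of length). H3K27me3 met 12.2% (10.9 to 13.6) and 5.77% (5.10 to 6.51), for which the odds ratio was 2.27 (1.89 to 2.72). It exceeded 1 on 18 of the 19 chromosomes giving a value and was 1.82 (1.51 to 2.20) within strata of length. The coding part of last exons carried more of it than the 3′ UTR. Of 1316 coding regions in last exons 15.8% (13.9 to 17.9) overlapped H3K27me3 and 16.8% (14.9 to 18.9) AP3, and of 968 regions in their 3′ UTRs 7.33% (5.86 to 9.15) and 12.8% (10.9 to 15.1). Median length was 450 bp for the coding regions and 250 bp for those in 3′ UTRs. First exons had H3K27me3 at 8 of 18 regions and AP3 at 2, and transcripts with 1 exon had H3K27me3 at 9 of 17 and AP3 at 3.

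**Figure D3:**
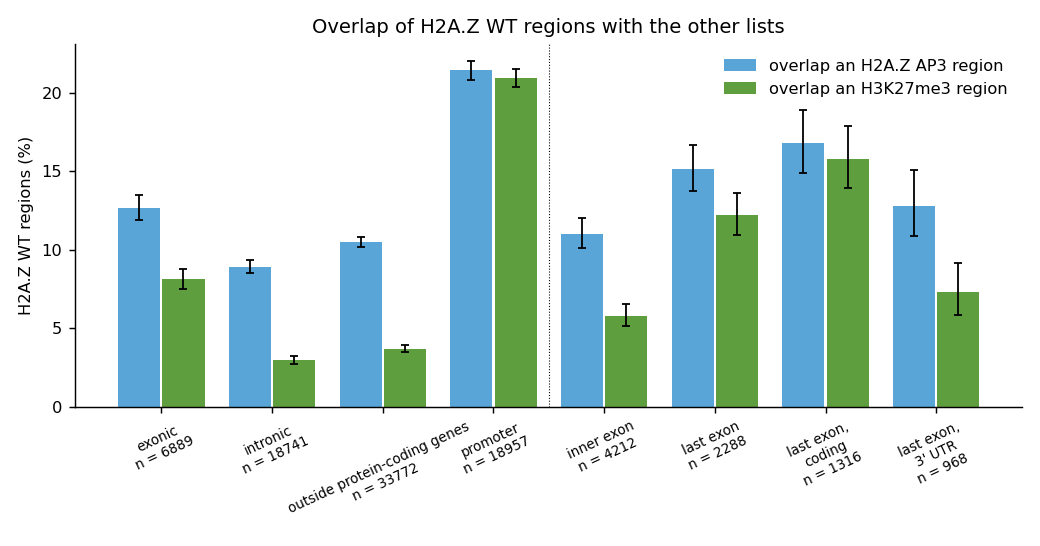
Percentage of H2A.Z WT regions that share at least 1 base with an AP3 region (blue) or an H3K27me3 region (green), with 95% Wilson intervals, by class (left of the dotted line) and for exonic regions by exon class and transcript part (right). Exonic regions (12.7% and 8.11%) lie between intronic regions (8.91% and 2.97%) and promoters (21.4% and 20.9%), and coding regions of last exons reach 16.8% and 15.8%.

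AP3 overlap was more frequent at exonic regions with H3K27me3 than at those without it. Of the 559 exonic regions with H3K27me3, 151 (27%) also overlapped AP3, against 721 of the 6330 without (11.4%), which gives an odds ratio of 2.88 (2.35 to 3.52; above 1 on 19 of 20 chromosomes). Within strata of length it was 1.49 (1.2 to 1.85), and within strata of CpG content 2.87 (2.28 to 3.6). The regions with both overlaps had a median length of 950 bp and 56.3% lay in last exons; the 721 with AP3 only had a median of 575 bp, the 408 with H3K27me3 only 612.5 bp, and the 5609 with neither 250 bp. Regions with H3K27me3 were also nearest to starts, at a median of 5.01 kb where it was alone and 6.67 kb with AP3, against 10.9 kb for AP3 alone and 13.9 kb for neither.

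CpG-rich sequence marked the exonic regions with H3K27me3. A region was called island-like when the 500 bp around its midpoint reached 55% G+C and an observed to expected CpG ratio of 0.65. By this rule 533 exonic regions (7.74%, 7.13 to 8.39) were island-like, against 1.42% (1.26 to 1.60) of intronic regions. Of the island-like exonic regions 53.8% (49.6 to 58.0) overlapped H3K27me3 and 26.1% (22.5 to 30.0) AP3, whereas of the other 6356 these shares were 4.28% (3.81 to 4.81) and 11.5% (10.8 to 12.3). Among regions with AP3 only, 6.24% were island-like, above the 3.58% of regions with neither and far below the 47.3% of regions with H3K27me3 only.

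Distance from a start separated the overlaps. The share with H3K27me3 was 23.6% (20.2 to 27.5) of the 516 exonic regions at 2 to 3 kb, 16.4% (14.1 to 19.0) at 3 to 5 kb, 9.18% (7.83 to 10.7) at 5 to 10 kb, 4.62% (3.68 to 5.78) at 10 to 20 kb, 3.26% (2.49 to 4.26) at 20 to 50 kb and 3.73% (2.67 to 5.19) beyond 50 kb. The share with AP3 was between 14.7% and 15.6% up to 10 kb and between 9.72% and 11.4% beyond. The density of regions changed less, from 130 per Mb (119 to 142) at 2 to 3 kb to 106 per Mb (99.6 to 114) beyond 50 kb. Island-like regions made up 17.4% of the nearest band and 4.41% of the farthest, and median length went from 375 to 225 bp. The values were similar on each side of the 2 kb limit: of 343 exonic regions at 1.5 to 2 kb 29.2% overlapped H3K27me3 and 15.5% AP3, and of 269 at 2 to 2.5 kb 25.7% and 14.5%.

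**Figure D4:**
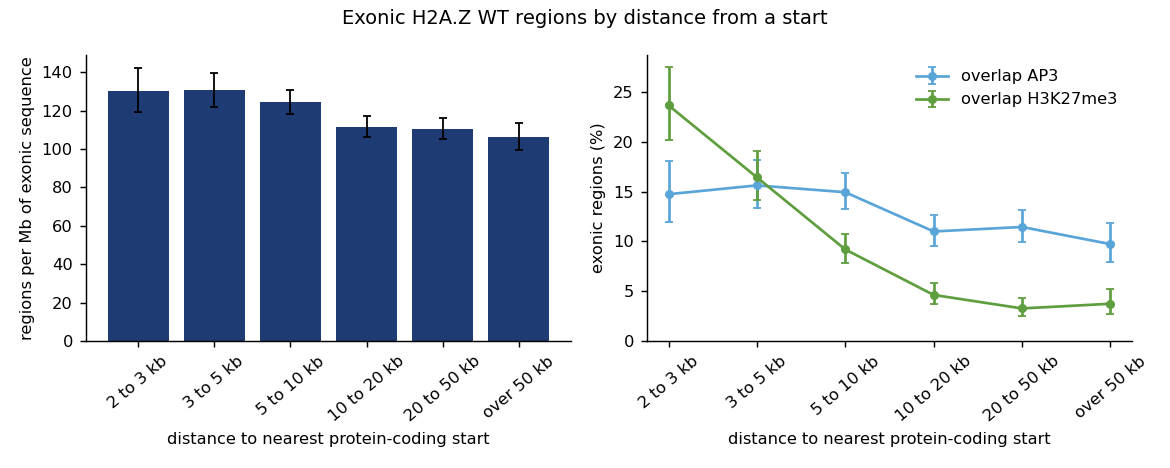
Exonic H2A.Z WT regions per Mb of exonic sequence (left, with 95% Poisson intervals) and the percentage overlapping AP3 (blue) or H3K27me3 (green; right, with 95% Wilson intervals), by distance from the nearest protein-coding start (horizontal axis, 6 bands). The H3K27me3 share falls from 23.6% to 3.73%, while the AP3 share goes from 14.7% to 9.72% and the density from 130 to 106 per Mb.

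Of the 18653 protein-coding genes with exonic sequence beyond 2 kb from starts, 4026 (21.6%) were hosts. A single exonic region was found in 2469 of them (61.3%), a pair in 897 (22.3%), 3 in 351, and 5 or more in 141 (3.5%). A member overlapped AP3 in 786 host genes (19.5%) and H3K27me3 in 469 (11.6%). Host genes offered more sequence, with a median of 3356 exonic bp against 2267 bp in the other genes, and it was richer in G+C (median 52.8%, quartiles 48.7 and 55.9%) than that of the other genes (45.7%, 41.3 and 50.6%). Across host genes the number of regions rose only weakly with exonic length (Spearman's rho 0.319 over 4026 genes, a description).

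Host genes also differed at their promoters. At least 1 H2A.Z WT region lay within 2 kb of a start in 84.1% of host genes (83.0 to 85.2) and 63.3% of the other genes (62.6 to 64.1). For AP3 these shares were 34.0% (32.6 to 35.5) and 22.7% (22.0 to 23.4), and for H3K27me3 41.9% (40.4 to 43.5) and 14.0% (13.4 to 14.6). Genes whose exonic region overlapped H3K27me3 had the mark at their promoter in 73.8% of cases (346 of 469, 69.6 to 77.6), against 37.7% (36.1 to 39.3) of the host genes with no such region. For AP3 the corresponding shares were 39.2% (35.8 to 42.6) and 32.7% (31.2 to 34.4). A promoter was counted when any part of a region lay within 2 kb of a start, whereas exonic regions were placed by midpoint. The same region can therefore count both in an exon and at the promoter of its gene. Exonic regions with H3K27me3 were also nearer to starts than the others. The parts of this double counting, of distance and of G+C in these differences were not tested.

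The host genes with the most exonic regions, of which 9 are described, encode very large proteins with many exons. Cdh23, a cadherin of the hair cell tip link (chromosome 10, 59765496 to 60159238), had 15 regions in 16.4 kb of exonic sequence, and 1 of them, 9.59 kb from the gene's start, overlapped both lists. Vwf, which encodes the clotting protein von Willebrand factor (chromosome 6, 125496792 to 125636697), had 14 regions in 15.6 kb, 2 with AP3. Most of their exonic regions had neither overlap, as did 81.4% of all exonic regions.

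The other genes described had 11 to 13 regions each. There were 13 in Sdk2, a synaptic adhesion molecule, in Sspo, the secreted SCO-spondin, in Dnahc10, an axonemal dynein heavy chain, and in Hmcn2, a hemicentin of the extracellular matrix, of which 2, 0, 1 and 0 overlapped AP3 and 1, in Hmcn2, overlapped H3K27me3. Cacna1c, the pore subunit of an L-type calcium channel, had 12 in 7.82 kb, or 1.53 per kb of exonic sequence, against 0.915 per kb in Cdh23. Dnahc2, another axonemal dynein, and Pkd1l2, a polycystin relative, had 11 each, with 2 and 1 meeting AP3. Sspo and Cacna1c, like Vwf, lie on chromosome 6, and Pkd1l2 lies on chromosome 8. Those chromosomes had 183 and 219 exonic regions per Mb of exonic sequence, against a median of 111 on the other 17 autosomes. The part of the chromosome in the counts of these genes was not tested. All 9 genes had an H2A.Z WT region at a promoter, 1 had AP3 there (Dnahc2) and 3 had H3K27me3 there (Sdk2, Sspo and Hmcn2).

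The placement of regions differed between these genes. In Vwf they ran from 50 to 1300 bp with a median of 250 bp, at 31.8 to 131 kb along a gene of 140 kb. In Cacna1c they ran from 25 to 1275 bp with a median of 300 bp, and all but 1 lay towards the end of a gene of 604 kb, the exception being a region 139 kb from the gene's start that overlapped AP3. By the midpoint rule, regions of this set can lie only where a gene has exons. The positions of the exons were not compared, so the part of exon layout in these placements was not tested. The map of the leading host genes places each region.

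**Figure D5:**
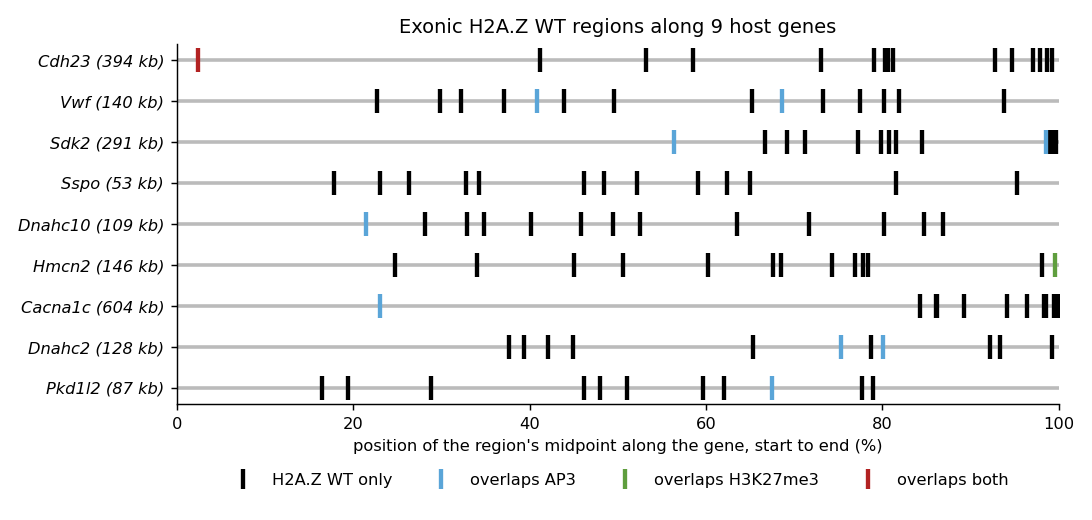
Position of the midpoint of each exonic H2A.Z WT region along 9 of the host genes with the most of them, as a percentage of the gene's length from its start to its end (horizontal axis; gene lengths in kb beside the symbols), coloured by overlap with AP3 and H3K27me3. Cdh23 has 15 regions and Pkd1l2 11, and in Cacna1c 11 of 12 lie in the distal part of the gene. The midpoints can lie only in exons, whose positions are not drawn.

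Voltage-gated channel genes had the highest density of the 18 gene lists. Their interval overlapped those of the Wnt and Frizzled, keratin, Hox, ADAMTS and Notch lists. Of 20 genes for the pore subunits of voltage-gated calcium and sodium channels, 17 were hosts (85%, against 21.6% of all genes). They held 71 regions at 452 per Mb (353 to 570), against 117 per Mb over all genes. AP3 met 10 of the 71 (14.1%) and H3K27me3 3 (4.23%). Over all exonic regions these shares were 12.7% and 8.11%, to be set beside the counts of every list below. Cacna1g, a T-type calcium channel, followed Cacna1c with 10 regions, 3 of them with AP3. Of 43 collagen genes 24 were hosts, with 54 regions at 190 per Mb (143 to 248), 7 each in Col6a4 and Col4a2, and 3 of the 54 overlapped AP3 and none H3K27me3. Laminins, the basement membrane proteins, gave 8 hosts of 11 and 16 regions (Lamc3 with 4 and Lamb3 with 3). None of the 16 met either list, but they are too few to set against the shares over all exonic regions.

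Densities varied among the other extracellular and adhesion genes. Of 19 ADAMTS protease genes 12 were hosts with 30 regions at 274 per Mb (185 to 392), 6 in Adamts13, the protease that cuts von Willebrand factor, and 4 in Adamts18; AP3 met 2 and H3K27me3 none. Of 8 giant cadherins 5 were hosts with 12 regions at 140 per Mb (72.4 to 245), of which 4 were in Dchs1, a cadherin of planar polarity, and 4 in Celsr3. H3K27me3 covered part of 3 of the 4 in Dchs1 and of none in Celsr3. Of 29 plexins and semaphorins, axon guidance molecules, 15 were hosts with 34 regions, led by Plxna4 with 5 and Sema4a with 4, and 4 of the 34 met AP3 and 5 met H3K27me3. The LDL receptor family had 4 hosts of 10 and 8 regions at 77.6 per Mb (33.5 to 153), an interval that, like that of the giant cadherins, holds the 117 per Mb of all genes, with 4 in Lrp1 and 2 in Lrp4.

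Structural genes of epithelia and the cytoskeleton were also frequent hosts. Keratins gave 20 hosts of 46 and 25 regions at 370 per Mb (240 to 547), of which 1 met AP3 and 3 met H3K27me3, with 2 regions each in Krt80 and Krt77. Plakins and spectrins gave 9 hosts of 13 and 35 regions at 231 per Mb (161 to 321), and AP3 met 8 of them (22.9%) and H3K27me3 5 (14.3%), where 12.7% and 8.11% of all exonic regions did. Spnb4, a spectrin of axons, had 8 regions, 3 with AP3 and 2 with H3K27me3, and Spnb1, a spectrin of red cells, had 7, with 1 and 0.

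Several lists of developmental regulators had H3K27me3 at more of their exonic regions than the whole set had (8.11%). The mark was also more frequent in clustered protocadherins (4 of 5), giant cadherins (3 of 12), plexins and semaphorins (14.7%), plakins and spectrins (14.3%) and keratins (12%). In voltage-gated channels the share was 4.23%, and in collagens, laminins, ADAMTS proteases and the LDL receptor family it was 0%. Wnt ligands and Frizzled receptors gave 16 hosts of 29 and 32 regions at 411 per Mb (281 to 580). Of these, 10 (31.3%) overlapped H3K27me3 and 6 (18.8%) AP3, against 8.11% and 12.7% of all exonic regions. Wnt9b and Wnt3a had 4 each, and 1 in Wnt9b and none in Wnt3a had H3K27me3, although both genes had it at a promoter. Of 35 Hox genes with exonic sequence beyond 2 kb from starts, 9 were hosts, and all 10 of their regions overlapped H3K27me3 and 3 AP3. Hoxa3 had 3, all with H3K27me3 and 2 with AP3, and Hoxb2 had 1, with H3K27me3. Hox genes lie close together and Hoxa3 is annotated under more than 1 identifier with shared exons, so a region can count for several of these genes.

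Among other regulators, Sox and Fox genes gave 17 hosts of 51 and 31 regions at 202 per Mb (138 to 287), with 7 meeting H3K27me3 and 5 AP3. Sox5 had 4 regions, none with either list, and Foxn1, the thymus epithelium regulator, had 3, 1 with AP3. Notch receptors and ligands gave 4 hosts of 9 with 11 regions. Of these, 7 were in Notch4, 1 with AP3, and 2 in Dll4, both with H3K27me3. Clustered protocadherins, whose variable exons are long, gave 4 hosts of 24 and 5 regions, of which 4 met H3K27me3 and 1 AP3; Pcdhgc5 had 2 and Pcdhb16 had 1.

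The remaining lists held few or no exonic regions for their number of genes. C2H2 zinc finger genes gave 66 hosts of 383 (17.2%) and 96 regions at 73.1 per Mb (59.2 to 89.2), below the 117 per Mb of all genes. AP3 met 19 of the 96 regions (19.8%) and H3K27me3 15 (15.6%), where 12.7% and 8.11% of all exonic regions did. Zfp536 had 4 of them and Zfp423 had 3. Histone lysine methyltransferases gave 1 host of 20, Setd1b, with 3 regions at 18 per Mb (3.72 to 52.7). Cytosolic ribosomal protein genes gave 2 hosts of 61, Rpl11 and Rpl13a, with 1 region each at 38.3 per Mb (4.64 to 138), an interval that holds 117. Olfactory receptors had 0 regions in 81.2 kb over 71 genes, which allows up to 37.0 per Mb at 3 counts, the limit used for a count of 0 (upper 95% Poisson limit 45.5). The G+C of the exonic sequence in the last 3 families was 48.8%, 45% and 41.9%, against 47.0% over all genes and 50.6% in the voltage-gated channels. Every list denser than 117 per Mb was above 47.0%, from 47.3% in Hox genes to 53.2% in keratins and 55.6% in Notch receptors and ligands. Of the less dense lists, the LDL receptor family (49.0%) and the methyltransferases were above it too. The part of G+C in the counts and densities of all lists was not tested.

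The other lists covered parts of the longest exonic regions. The Plec region (chromosome 15, 76006976 to 76013125) spanned 6150 bp, of which H3K27me3 covered 400 bp and AP3 0. The Apc2 region (chromosome 10, 79773526 to 79778925) spanned 5400 bp, with 200 bp in AP3 and 500 bp in H3K27me3. In Bsn, the region at 108012226 to 108016300 on chromosome 9 had 4075 bp, 850 bp of it with H3K27me3 and 0 with AP3, and its neighbour at 108006926 to 108010950 had 4025 bp, 1400 bp of it with AP3 and 75 bp with H3K27me3. The fifth, in exons of non-coding transcripts of the phosphodiesterase gene Pde4c (chromosome 8, 73269676 to 73273600), had 3925 bp, with 425 bp in AP3 and 0 in H3K27me3. All 5 lay 6.94 to 17.5 kb from the nearest protein-coding start.

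Other long regions lay in last or first exons. In the last exon of Evpl, which encodes envoplakin of the epidermal envelope (chromosome 11, 116081901 to 116085525), a region of 3625 bp had 1850 bp in H3K27me3 and 200 bp in AP3. In the last exon of Disp2, a relative of the Hedgehog release factor Dispatched (chromosome 2, 118615301 to 118618475), 750 of 3175 bp were in H3K27me3 and none in AP3. In Elfn2, whose last exon lies 44.7 kb from a start (chromosome 15, 78502176 to 78505525), 125 of 3350 bp were in AP3. The 3 longest regions in first exons were in Mn1, Pcdh10 and Arhgef4, at 2.12 to 3.15 kb from a start. H3K27me3 covered 2200 of 2525 bp in Mn1, 2125 of 2350 bp in Pcdh10, a protocadherin of neurons, and 0 of 1875 bp in Arhgef4, and AP3 met none of the 3.

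Exonic regions were kept at the stricter threshold (1e-12) somewhat more often than the whole list. A region of the stricter H2A.Z WT list lay in 80.0% (79.1 to 81.0) of exonic regions and in 69.9% (69.3 to 70.6) of intronic regions, against 75.7% of all H2A.Z WT regions. It was 71.7% (71.3 to 72.2) outside protein-coding genes and 87.0% (86.5 to 87.4) at promoters. The share was 79.7% in inner exons and 80.8% in last exons. Median length was 300 bp for exonic, 200 bp for intronic and 400 bp for promoter regions, and the part of length in these shares was not tested.

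Chromosomes differed in how many exonic regions they held. Chromosome 8 had 219 per Mb of exonic sequence (202 to 237) and chromosome 6 had 183 per Mb (168 to 199), whereas the other 17 autosomes ran from 76.2 per Mb on chromosome 13 to 142 per Mb on chromosome 11, with a median of 111. The share with AP3 was 20.4% (17.4 to 23.8) on chromosome 8 and 17.1% (14.2 to 20.3) on chromosome 6, against 7.01 to 15.2% on those 17, while the share with H3K27me3 was 6.10% and 5.34%, within their 4.55 to 13%. Chromosome X had 35 regions at 15.0 per Mb (10.4 to 20.9). Without chromosomes 6 and 8, AP3 met 11.4% of exonic regions, and the odds ratios above kept their directions.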

How the data were processed

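ChIP-Seq was performed on mouse ESCs in 3 libraries, 1 each for the wild-type transgene, the AP3 mutant and H3K27me3. Per the labels and methods, the authors aligned reads to mm9 with Bowtie 0.12.3, extended them to the fragment length, counted them in 25-bp bins and called enriched bins in each library with a Poisson model and a minimal fold over input. The deposited lists hold only the start and end of each region, at thresholds named 1e-9 and 1e-12, and other values such as a height or p-value are not used here. The looser list was used. Depth is unknown, and a deeper library passes a fixed threshold at more places, so list sizes mix depth with enrichment. How reads matching several places were treated is not given in the sources used here. The labels name V6.5 as the strain, whereas by their treatment notes the transgenic lines derive from KH2 cells; the antibody against H3K27me3 differs between the labels and the methods.

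Regions were assigned by midpoint to GENCODE vM1 models on the same assembly (Python 3.11.15, numpy 2.4.6, scipy 1.17.1), and overlap meant at least 1 shared bp. Wilson, Poisson and odds-ratio intervals (95%) cover counting error only. Strata were combined by the Mantel-Haenszel estimator. Code was tested on simulated data and against bedtools 2.31.1. Named genes were the 10 hosts with the most regions, of which 1 is not reported here, and the 2 leading genes of each of 18 lists, and named regions the longest overall and in each overlap or exon class. The members and lists were chosen with earlier results of these data known. Older spectrin symbols were added to a list, and matching on G+C and CpG, the island-like rule and the bands of distance and exon size were chosen, after the data were seen.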

Additional observations from a re-analysis of the deposited data

Results flagged for a closer look

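The stricter H2A.Z WT list held exonic regions that the looser list, on which the values above rest, did not hold. Of 6310 exonic regions at 1e-12, 533 (8.45%, 7.79 to 9.16) shared no base with any region at 1e-9. Their median length was 175 bp, 2.63% overlapped an AP3 region and 1.69% an H3K27me3 region of the stricter lists. The cause was not tested.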

How the results depend on the processing

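The 11 planned values were recomputed under 126 alternatives, and the ratios and odds ratios were above 1 in all 76 of theirs, from 1.07 to 6.09. The odds ratio of AP3 overlap in exonic against intronic regions fell to 1.07 within strata of length and 1.14 when every base had to be exonic, with intervals that include 1. Requiring every base to be exonic left 2825 regions in 2235 host genes, with 53.0% in last exons, 8.78% with AP3 and 7.12% with H3K27me3. It also took the ratio of exonic to intronic density from 5.34 to 2.56 (2.46 to 2.66). The share in last exons was 35.5% with starts of all transcripts and 35.0% with exons of coding transcripts only. The AP3 share was 11.5% for regions of at least 100 bp, 11.4% without chromosomes 6 and 8, 5.23% when at least 50% of the region had to be covered and 16.9% within 1 kb. The H3K27me3 share was 10.7% with a 1 kb limit from starts, 5.34% with 5 kb, 5.28% with at least 50% covered and 11.3% within 1 kb. The ratio of exonic to intronic coverage (6.87) was 1.74 at the same G+C and 1.38 at the same G+C and CpG count, alternatives added after the data were seen. The other 109 values stayed within 1.5 times, within the interval or on the same side of 1. Reads were not analysed, so weak enrichment below the threshold was not detectable, and with 1 library per group biological variation is unknown.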
